A study of Oryza sativa Japonica Group with 10 samples.

Results

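The third day of low phosphate was examined in rice seedlings by setting the 2 arrays taken at 72 h against the 2 taken at 48 h, which are 4 of the 10 arrays of the study. The seedlings were the japonica cultivar Zhonghua 10, a week old and harvested whole. Both groups had been moved to low phosphate, and the labels name no transgene, mutant or other agent. The arrays were chosen by the hours in their titles, and the arrays with sufficient phosphate were left out. No array with sufficient phosphate is labelled 48 h or 72 h, so the extra day of low phosphate cannot be told apart from an extra day of age. The sources used here give neither the number of seedlings in a sample, nor the hour of harvest, nor the phosphate concentration.

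Plants take up inorganic phosphate through PHT1 transporters in the root and load it into the xylem through PHO1 proteins. MYB factors of the PHR family switch on the genes of phosphate starvation, and SPX proteins bind PHR factors when phosphate is plentiful. A seedling of this age also still draws on its grain, where alpha-amylases break down starch and the glyoxylate cycle turns stored lipid into precursors of sugar.

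The values are signals of Affymetrix rice arrays, which carry several short probes per probe set, mostly near the 3' end of a transcript. Differences are given as log2 signal at 72 h minus log2 signal at 48 h, with the standard error of the fit and 2 arrays a group. A probe set counted as changed at a Benjamini-Hochberg adjusted p under 0.05 in limma's moderated test. All adjusted p-values below come from that fit. In whole seedlings, fewer cells of a type and less RNA per cell cannot be told apart. Markers of the organs were present on all 4 arrays. The root silicon channel OsNIP2;1 read 19781.0 to 25654.7 and the light-harvesting gene CAB2R read 18764.0 to 28185.6 on its brighter probe set. OsCASP1, which builds the Casparian strip of the root, was dim at 99.0 to 151.9.

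The 72 h arrays stood apart in how much signal was left toward the 5' end of transcripts. Control probe sets lie at both ends of some transcripts, and their log2 ratio of 3' to 5' signal shows that. For rice Gapdh the ratio was 1.67 and 1.49 on the 48 h arrays and 4.73 and 5.48 on the 72 h arrays. For a pair of rice actin probe sets it was 2.54 and 2.30 at 48 h against 5.34 and 6.86 at 72 h. The cyclophilin ratio went from 1.08 and 1.21 to 1.71 and 1.81, while that of ubiquitin lay between -0.70 and -0.48 on all 4 arrays. The added bacterial dap transcript moved with the rice controls, from 2.21 and 1.99 to 5.65 and 6.4. The hybridisation control bioB, which is added after labelling, had means of 0.09 and -0.01. In further pairs for these controls the 72 h mean was 3.92 and 4.09 higher for dap, 2.90 and 1.8 for thr and 0.25 for bioD. The part of this loss in any single gene's change was not tested. For that reason a gene is called a fall below only where every tested probe set of the gene was lower.

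**Figure D1:**
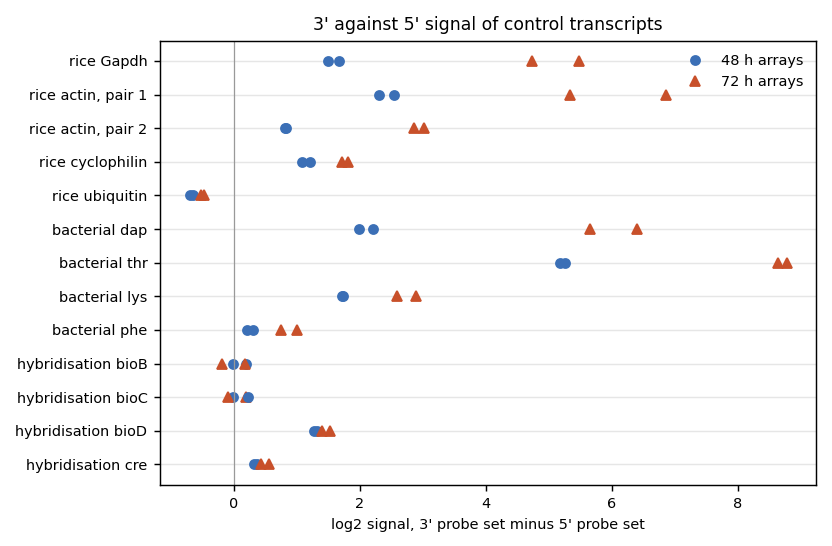
Log2 ratio of 3' to 5' signal (x axis) for 13 control transcripts on each 48 h array (circles) and each 72 h array (triangles). Rice Gapdh, actin and the bacterial dap and thr controls were 2.12 to 3.93 higher at 72 h on the mean, and the hybridisation controls differed by at most 0.16.

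In all, 10639 of 34355 tested probe sets differed between 48 h and 72 h, which is 31.0%. Of these, 4934 were higher at 72 h (14.4% of those tested) and 5705 lower (16.6%). The step before it, from 24 h to 48 h, had 12182 calls (35.5%), 6929 higher (20.2%) and 5253 lower (15.3%), and shares the 48 h arrays. By the study's rule of a ratio of means beyond 2-fold, with no test, 3613 probe sets were higher (10.5%) and 2702 lower (7.86%). Only 1131 of the higher and 1932 of the lower ones also passed limma.

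The direction of small changes rested on the scaling. The authors' scaling sets each array's trimmed mean to one value, and the median over all probe sets was then 69.2 and 68.4 on the 72 h arrays against 48.9 and 47.5 at 48 h, a shift of 0.51 on the log2 scale. Over the 19024 probe sets with signals above 100 on all 8 low-phosphate arrays the median shift was -0.11. With the arrays centred on the overall median, 887 probe sets were higher and 15334 lower, so that 5.47% of calls were higher against 46.4% under the authors' scaling. With the arrays centred on the bright probe sets the counts were 6908 and 4462, or 60.8% higher. Median centring takes 0.51 off each difference, so rises below that size turn into values under 0, and this is stated where it touches a named gene.

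Probe sets of the same gene diverged more often at this step than at the previous one. Among 2519 genes with 2 or more tested probe sets, the median distance between a gene's highest and lowest difference was 0.60 at 72 h against 48 h and 0.50 at 48 h against 24 h. That distance was over 2 on the log2 scale in 273 genes (10.8%) at the later step and in 120 (4.76%) at the earlier. At the later step 975 genes had at least 1 lower probe set, and all probe sets were lower in 211 of them (21.6%). All probe sets rose in 100 of 650 genes with at least 1 rise (15.4%).

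Of the genes of phosphate uptake and signalling, 2 transporters rose between 48 h and 72 h under the authors' scaling. They were 2 of 9 tested phosphate transporters, and none was lower, beside 19.5% of 16112 genes that rose and 18.8% that were lower when each gene is read on its brightest probe set. OsPht1;2, a root phosphate transporter, read 4861.8 and 4135.7 at 48 h and 6525.1 and 6697.3 at 72 h. Both 72 h arrays lay above both 48 h arrays, as they did in 37.9% of all tested probe sets. The difference of OsPht1;2 was 0.56 ± 0.08 (adjusted p = 0.000456). OsPHO1;2, which loads phosphate into the xylem, read 2142.5 and 1978.0 and then 2791.7 and 2667.1. Its difference was 0.41 ± 0.07 (adjusted p = 0.000807), and its other probe set rose by 0.38 ± 0.11. After median centring the difference of OsPht1;2 was 0.05 (adjusted p = 0.671) and that of OsPHO1;2 -0.11, so neither rise held under that scaling, in which no transporter rose and 3 were lower. Under it 392 of all 16112 genes rose and 9547 were lower.

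The other bright transporters gave no call. OsPht1;1, another root transporter, read 2252.9 and 2400.9 at 48 h and 2455.7 and 2469.3 at 72 h, a difference of 0.08 ± 0.06 (adjusted p = 0.348). OsPht1;4 differed by 0.07 ± 0.10 and OsPht1;8 by -0.17 ± 0.13. OsPht1;3, OsPht1;6, OsPht1;11 and OsPHO1;3 were dim, with signals from 9.7 to 128.0 on the 4 arrays, and their standard errors lay between 0.62 and 1.12. At those signals a change of the size seen in OsPht1;2 was not detectable.

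No SPX gene and no PHR gene passed the test on its brightest probe set under the authors' scaling. OsSPX1 and OsSPX2, inhibitors of OsPHR2 that phosphate starvation is known to induce, differed by -0.18 ± 0.12 and -0.29 ± 0.20. For OsSPX1 the signals were 1206.6 and 1173.5 at 48 h and 1072.0 and 1024.4 at 72 h. OsSPX4, which holds OsPHR2 outside the nucleus, read 1760.2 and 1830.1 and then 1940.4 and 1965.8, a difference of 0.12 ± 0.07 (adjusted p = 0.222). OsSPX5 was dim, at 43.2 and 56.7 and then 98.9 and 58.2, a difference of 0.62 ± 0.60. The 48 h and 72 h arrays did not overlap for OsSPX1, OsSPX2, OsSPX4, OsSPX5, OsPHR1 or OsPHR3. None of these differences passed the test. Such separation was common. Both 72 h arrays lay above both 48 h arrays in 37.9% of all tested probe sets and below them in 31.0%. OsPHR1 differed by 0.14 ± 0.08 and OsPHR3 by 0.17 ± 0.10. Centring on the bright probe sets brought OsSPX4 to 0.23 (adjusted p = 0.0259), OsPHR1 to 0.25 (adjusted p = 0.0292) and OsPht1;1 to 0.19 (adjusted p = 0.0322), whereas median centring turned all 3 below 0. After median centring 3 of 4 SPX and 3 of 3 PHR genes were lower, such as OsSPX1 at -0.70 (adjusted p = 0.000451), OsSPX2 at -0.80 (0.00919) and OsPHR2 at -0.55 (0.000196).

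OsPHR2, the main regulator of the response, shows why single probe sets were not trusted for falls. Its brighter probe set read 2723.5 and 2845.1 at 48 h and 2689.4 and 2741.0 at 72 h, a difference of -0.04 ± 0.06 (adjusted p = 0.703). Its other probe set read 1550.9 and 1499.4 and then 676.4 and 619.9. That difference of -1.24 ± 0.09 passed the test as lower (adjusted p = 3.31e-06). The same was seen in OsHAK7, a potassium transporter, whose brighter probe set rose by 0.34 (-0.18 after median centring) while the other gave -3.65. In both genes 1 probe set was near 0 or higher and the other was far lower on the 72 h arrays, so neither gene was called a fall.

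The galactolipid synthases, which replace phospholipids in starved plants, gave 1 call under the authors' scaling. OsMGD1 was lower on its only probe set, 1655.4 and 1620.9 at 48 h against 1260.2 and 1381.0 at 72 h, a difference of -0.31 ± 0.08 (adjusted p = 0.0155). It has no other probe set to compare and is not called a fall. The call ended without 48 h replicate 1 (adjusted p = 0.0869), without 48 h replicate 2 (0.0638) and without 72 h replicate 1 (0.104). OsMGD3, the member known to be induced by phosphate starvation, differed by 0.08 ± 0.10, and OsMGD2 was dim. Centring on the bright probe sets brought OsMGD1 to -0.20 (adjusted p = 0.0877), and none of the 3 genes was then lower. After median centring OsMGD3 was at -0.44 (adjusted p = 0.00476). Under that scaling 2 of the 3 were lower, as were 9547 of all 16112 genes.

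**Figure D2:**
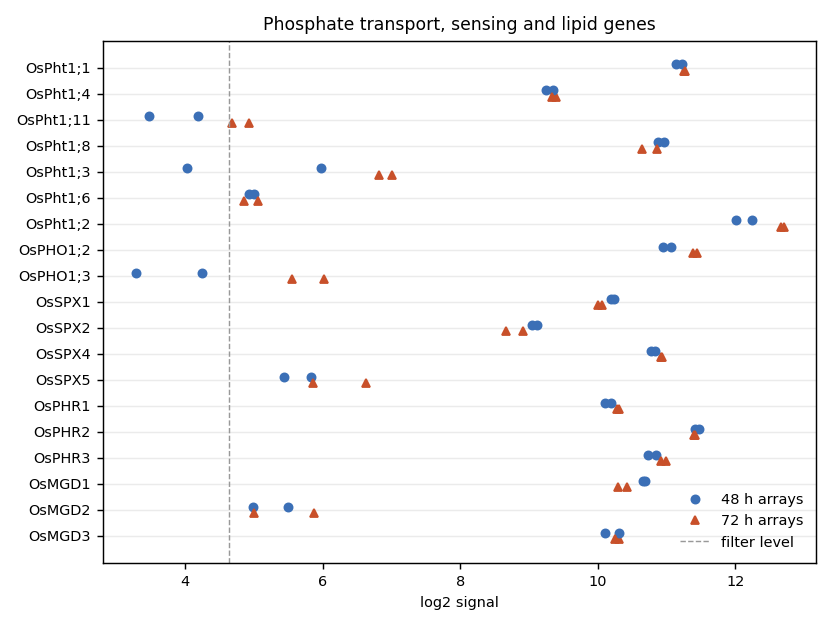
Log2 signal (x axis) of the brightest probe set of 19 phosphate transport, SPX, PHR and galactolipid genes on each 48 h array (circles) and 72 h array (triangles), with the filter level of 4.632 as a dashed line. OsPht1;2 and OsPHO1;2 are the only genes whose rise passed the test, and the 4 transporters at signals of 128.0 or less did not pass.

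The largest named rises included a gene of the glyoxylate cycle and an alpha-amylase. OsICL, isocitrate lyase of the glyoxylate cycle, read 516.1 and 535.1 at 48 h and 2562.3 and 2567.7 at 72 h, a difference of 2.29 ± 0.08 (adjusted p = 5.95e-08). MS, a symbol used for malate synthase but without a description in the gene table, so that the identity is not certain, read 5188.3 and 5197.0 and then 17705.1 and 17575.6, a difference of 1.76 ± 0.06 (adjusted p = 3.78e-08). In both genes the replicates of a group were nearly the same and lay far from the other group. AMY1.3, the sugar-starvation-induced alpha-amylase also called RAmy3D, went from 149.9 and 164.9 to 773.8 and 709.8, a difference of 2.24 ± 0.18. AMY1.5, another alpha-amylase, went from 470.4 and 468.8 to 1058.0 and 1149.1, a difference of 1.23 ± 0.13. The third amylase tested, AMY1.4, was dim and gave 0.99 ± 0.55, so 2 of 3 alpha-amylases rose, and the same count was reached after median centring.

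The earlier times differed between these genes. AMY1.3 read 341.2 and 290.1 at 24 h, so the 72 h level was above both earlier days. MS read 13246.4 and 13454.4 at 6 h, 4793.2 and 5366.9 at 24 h, and was back above its 6 h level at 72 h. Genes of grain storage proteins were also measured. Of 4 seed reserve genes tested, GLUA-2, a glutelin, rose by 0.37 ± 0.07 on 1 probe set (-0.14 after median centring) and the others did not pass, among them the dim GLUB-4 at 2.0 ± 0.88, singled out after its value was seen.

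The rest of the 14 largest rises included a calcium sensor gene, a heat shock factor gene and some stress-related genes. CML15, a calmodulin-like calcium sensor, read 336.0 and 337.8 at 48 h and 1785.8 and 1769.5 at 72 h, a difference of 2.40 ± 0.10. OsHsf-11, the heat shock factor also named HSFA2A, went from 86.6 and 96.4 to 284.4 and 268.8, a difference of 1.60 ± 0.16, while its 2 dimmer probe sets did not pass. OsLEA19, a late embryogenesis abundant protein that accumulates in drying tissue, went from 622.0 and 579.9 to 1630.0 and 1964.4, a difference of 1.58 ± 0.09. OsHox24, a homeodomain-leucine zipper factor induced by drought, went from 59.8 and 49.6 to 181.9 and 149.5. OsSAP5, a stress-associated zinc finger protein, rose on both of its probe sets, by 1.62 ± 0.11 and 0.76 ± 0.08.

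For 11 of the 14 named rises the mean signal was lowest at 48 h, as it was for 1475 of the 3136 genes that rose (47.0%), and since rises are chosen on the 48 h arrays this is a description. OsLEA19 had read 5244.1 and 5222.5 at 24 h and OsHox24 1003.3 and 974.0, both above their 72 h signals. The chitin receptor Os-LYP1, known as CEBiP, went from 793.2 and 666.3 at 48 h to 2461.5 and 2334.9 at 72 h, a difference of 1.72 ± 0.09, after 8173.6 and 7978.4 at 24 h. Since 48 h against 24 h and 72 h against 48 h share the 48 h arrays, the changes at both steps are given side by side only as values. They were -3.47 and 1.72 for Os-LYP1, -3.12 and 1.58 for OsLEA19, and -1.35 and 2.40 for CML15. For CML15, OsICL, AMY1.3 and 5 others the 72 h mean was the highest of the 4 times.

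The remaining named rises came from several families, most of them at low signal. OsMFT2, a relative of the flowering protein FT that acts in seeds, went from 139.0 and 106.1 to 501.6 and 442.0, a difference of 1.96 ± 0.30. OsILI2, a small helix-loop-helix protein, rose by 1.82 ± 0.33 to 136.2 and 188.9. OsEGY3, a membrane protein related to chloroplast proteases, read 16.2 and 22.2 at 48 h, both under the filter level of 24.79, and 112.7 and 133.8 at 72 h. Its difference was 2.69 as measured and 2.31 with the 48 h arrays set to the filter level. The jasmonate repressor OsJAZ11 rose by 2.54 ± 0.76 (adjusted p = 0.0271), but its 48 h arrays read 72.9 and 8.2, and without the lower of them, 48 h replicate 2, the difference was 0.96 (adjusted p = 0.0659). Without 72 h replicate 1 or 2 the OsJAZ11 call also ended (adjusted p = 0.112 and 0.0924). CYP76M6, a cytochrome P450 of diterpenoid synthesis, rose by 1.85 ± 0.52 on 1 probe set while the other differed by -0.63 ± 0.31. That call ended without 48 h replicate 2 (adjusted p = 0.131), without 72 h replicate 1 (0.0708), without 72 h replicate 2 (0.0911) and after median centring (0.0553).

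**Figure D3:**
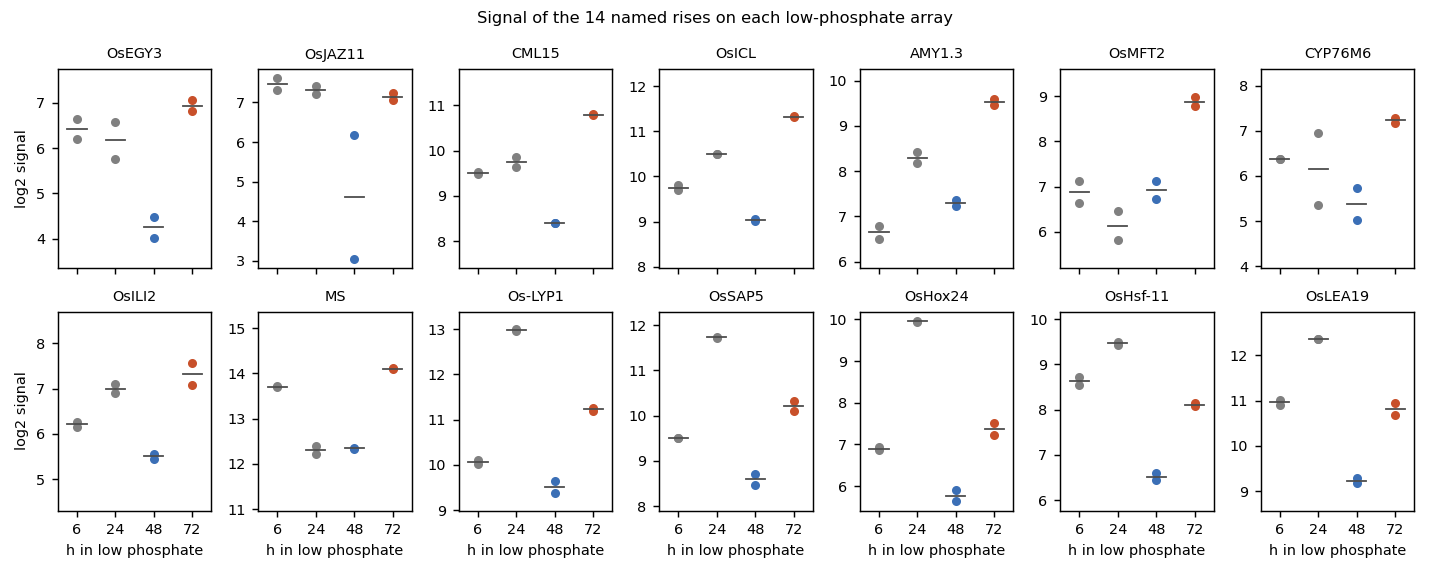
Log2 signal (y axis) of the 14 named rises on each array at 6, 24, 48 and 72 h in low phosphate (x axis), with a point per array and a bar at the mean. Each panel has its own range of at least 4.4 log2 units, and 11 of the 14 panels show 48 h as the lowest time by its mean.

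Some genes rose on every probe set. They were 23 named genes of 100, and those given here were chosen after their values were seen. SGR, the stay-green protein that starts chlorophyll breakdown, rose by 0.89 and 1.0 on its 2 probe sets. OsMT-I-2b, a metallothionein that binds metals, rose on all 3 of its probe sets, by 0.67 to 0.70. The potassium transporter OsHAK10 rose by 0.71 and 0.67, which median centring brought to 0.20 (adjusted p = 0.123).

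A fall could be called only in genes with several tested probe sets, and the rule that all of them agree was met by 211 genes, 34 of them named. Where these probe sets lie along a transcript, and whether those of a gene share probes, was not examined. In CAT-A, OsCRL3, MPK10 and CAB2R, among others, some of the agreeing probe sets have names that differ only in the suffix. Their agreement may therefore not be independent. The part of the loss of 5' signal in these falls was not tested. Of the 16 falls described here, 8 kept that agreement under every alternative: CAT-A, OsCesA3, OsSUS1, OsCRL3, MPK10, ta4, OsTLP3 and CAB2R. The catalase CAT-A, which removes hydrogen peroxide in peroxisomes, fell on all 3 of its probe sets. Its brightest read 9300.2 and 9740.8 at 48 h and 4233.2 and 4379.6 at 72 h, a difference of -1.14 ± 0.06 (adjusted p = 4.93e-07). The other probe sets of CAT-A gave -1.13 ± 0.07 and -1.99 ± 0.15. At 24 h the brightest had read 1085.7 and 1173.1, so 72 h lay between the 24 h and 48 h levels.

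The other named falls included 3 genes of carbohydrate enzymes. OsCesA3, a cellulose synthase subunit of growing walls, went from 5713.3 and 5569.7 to 2788.0 and 2531.3, a difference of -1.09 ± 0.07, and by -4.23 ± 0.59 on a probe set that was dim at 72 h. The sucrose synthase OsSUS1 went from 5843.3 and 5643.3 to 3148.4 and 3151.3, a difference of -0.87 ± 0.05, and by -2.01 ± 0.14 on the other probe set. BGLU3, a beta-glucosidase, gave -1.59 ± 0.20 and -0.75 ± 0.25 (adjusted p = 0.0473), and the second did not pass in 12 alternatives, such as without 48 h replicate 2 (0.29) or 72 h replicate 2 (0.175). In OsCesA3 and OsSUS1 the groups lay far apart, but their probe sets gave sizes more than 1 log2 unit apart, so no single size can be given.

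Further named falls were in genes of signalling and membrane transport, and in ta4, whose function is not given here. OsCRL3, a histidine kinase also named OHK3 that senses cytokinin, went from 1984.2 and 1976.8 to 1022.9 and 1015.2, a difference of -0.96 ± 0.07, with -1.47 ± 0.14 on the other probe set. MPK10, a MAP kinase, gave -1.69 ± 0.16 and -1.12 ± 0.12, and ta4 gave -2.06 ± 0.13 and -1.03 ± 0.07. No single size can be given for ta4 either. OsHAK1, the high-affinity potassium transporter, went from 1998.1 and 2024.2 to 845.3 and 796.7, a difference of -1.29 ± 0.08, with -0.91 ± 0.22 on the other. OsTIP2;1, a vacuolar aquaporin, gave -0.88 ± 0.07 and -0.69 ± 0.18. In each of these genes both 72 h arrays read below both 48 h arrays on every probe set, which the rule for named falls requires. The second probe set of OsHAK1 did not pass without 48 h replicate 1 (adjusted p = 0.0557) or 2 (0.0521), and that of OsTIP2;1 without 48 h replicate 1 (0.0664) or 2 (0.0657) or without 72 h replicate 1 (0.0895).

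Genes of regulators made up most of the rest, and of these OsTLP3 alone kept its agreement. The tubby-like protein gene OsTLP3 gave -0.62 ± 0.08 and -3.15 ± 0.19. These sizes lay far apart, so no single size can be given, and the same holds for OsHsf-08 below. OsHox16, a homeodomain-leucine zipper factor, gave -0.79 ± 0.09 and -0.67 ± 0.18, and the second did not pass without 48 h replicate 2 (adjusted p = 0.111) or 72 h replicate 2 (0.119). OsDof1, a Dof zinc finger factor, gave -0.54 ± 0.10 and -0.59 ± 0.16, and the second did not pass without the same arrays (0.133 and 0.0973). The heat shock factor OsHsf-08 gave -0.66 ± 0.06 on its bright probe set and -2.33 ± 0.79 (adjusted p = 0.0459) on a dim one, which did not pass in 11 alternatives, up to 0.217 without 48 h replicate 2. OsKO1, an ent-kaurene oxidase gene of gibberellin synthesis, gave -0.54 ± 0.14 (adjusted p = 0.012) and -1.18 ± 0.23. The call of its brighter probe set ended without 48 h replicate 1 (adjusted p = 0.0723), without 48 h replicate 2 (0.0649) and after quantile normalization (0.0818).

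**Figure D4:**
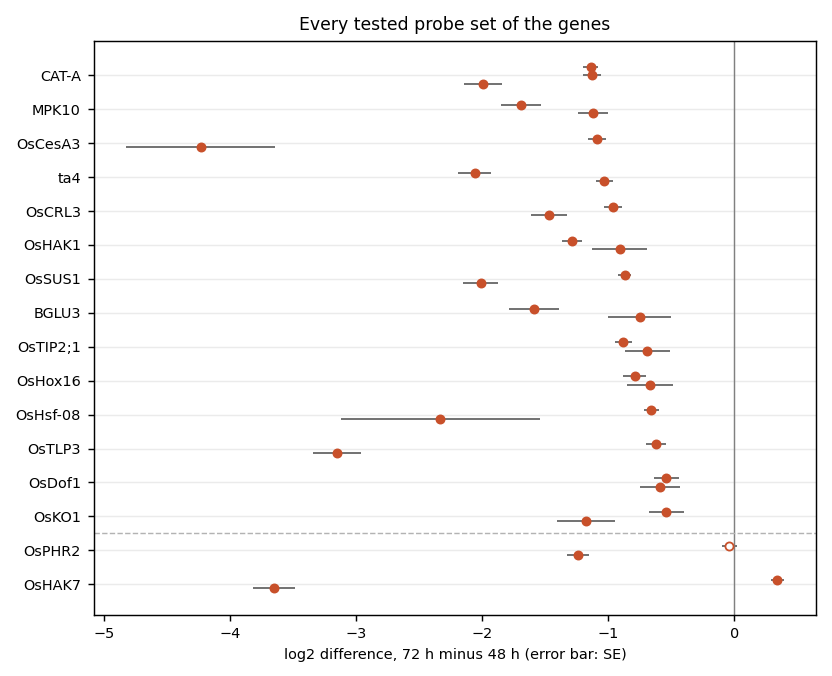
Log2 difference between 72 h and 48 h with its standard error (x axis) for every tested probe set of the 14 named falls and, under the dashed line, of OsPHR2 and OsHAK7. Filled points passed the test; all probe sets above the line were lower, whereas OsPHR2 and OsHAK7 each have 1 probe set near 0 or above it and 1 at -1.24 or -3.65.

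Stress genes beyond the largest rises were read through lists of named genes, beside 19.5% of all genes that rose and 18.8% that were lower, with a median of 0.02. These shares stand beside every list below. After median centring, 392 of all 16112 genes rose and 9547 were lower. The counts were 4390 and 2194 after centring on the bright probe sets, and 3503 and 2748 after quantile normalization. Of 43 heat shock factors and chaperones, 18 rose, 3 were lower and 22 did not pass, with a median of 0.39. After median centring 9 rose and 14 were lower. CLPB1, the HSP101 disaggregase, went from 66.5 and 69.2 to 167.0 and 205.9, a difference of 1.45 ± 0.26. OsHsf-14 rose by 1.43 ± 0.10 and 0.72 ± 0.16 on its 2 probe sets, and the small heat shock protein OsHsp17.4 by 1.42 ± 0.16. All 3 of these genes kept their call under every alternative run.

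Dehydrins and related proteins formed a smaller list. Of 6 dehydrins and late embryogenesis abundant proteins 4 rose, none was lower and the median was 0.89, and after median centring 2 rose and 1 was lower. RAB16D, a dehydrin, went from 1665.6 and 1459.3 to 3606.7 and 3619.5, a difference of 1.21 ± 0.08. RAB21, another dehydrin, rose by 0.82 ± 0.17 on its brighter probe set and gave 0.48 ± 0.40 on the other, and after median centring the first was 0.31 (adjusted p = 0.194). Among 7 DREB factors, which bind dehydration and cold response elements, 2 rose and 1 was lower. CBF3 went from 204.8 and 209.6 to 527.0 and 404.3, a difference of 1.16 ± 0.19. DREB1G rose by 2.39 ± 0.59 from signals of 5.9 and 14.6 that lie under the filter level, and by 0.97 with those set to that level. Its call ended without 48 h replicate 1 (adjusted p = 0.0511), without 72 h replicate 1 (0.0503) and after quantile normalization (0.0544).

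Abscisic acid and calcium genes changed in both directions, beside 19.5% of all genes that rose and 18.8% that were lower. The abscisic acid counts lay near those shares. Of 64 abscisic acid genes 13 rose, 15 were lower and 36 did not pass, with a median of -0.02, and centring on the bright probe sets gave 21 and 10 and median centring 3 and 43. OsPP2C48, a phosphatase of the family that inhibits the pathway, rose by 1.04 ± 0.09 on its bright probe set, and OsABA8ox2, which breaks the hormone down, by 0.84 ± 0.10. OsSAPK9, a kinase that the hormone activates, was lower on its only tested probe set, 1112.6 and 1156.1 at 48 h against 166.4 and 171.4 at 72 h, and has no other probe set to compare. Of 68 calcium signalling genes 20 rose and 16 were lower, with a median of -0.01, and after median centring 3 rose and 38 were lower. CML16 went from 225.6 and 218.5 to 574.4 and 557.6, a difference of 1.35 ± 0.08, after 3624.7 and 3584.4 at 6 h. CML10 rose by 0.81 ± 0.06.

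Genes of the growth hormones gave calls in both directions, beside 19.5% of all genes that rose and 18.8% that were lower. Of 25 genes of cytokinin response and turnover 6 rose and 3 were lower, with a median of 0.03, and after median centring 3 rose and 10 were lower. OsRR6, a type-A response regulator that cytokinin induces, went from 1596.1 and 1589.4 to 3040.7 and 3334.5, a difference of 1.0 ± 0.08. OsRR9, of the same type, rose by 0.95 ± 0.08, OsRR4 by 0.69 ± 0.11 and LOGL3, an enzyme that releases active cytokinin, by 0.74 ± 0.06. Among these 4, OsRR4 was at 0.18 after median centring (adjusted p = 0.26). Of 52 auxin response genes 4 rose and 14 were lower, with a median of -0.08, against 7 and 8 after centring on the bright probe sets and 1 and 37 after median centring. OsPIN5a, of the PIN auxin transporters, rose by 1.04 ± 0.18. IAA1, an Aux/IAA repressor, was lower on its only probe set, 9352.4 and 9222.6 at 48 h against 3522.5 and 3506.8 at 72 h. OsGAI, the DELLA repressor of gibberellin signalling known as SLR1, rose by 0.61 ± 0.11, which was 0.09 after median centring (adjusted p = 0.566).

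Iron genes were lower more often than higher, but nearly always on a single probe set. Of 32 iron homeostasis genes 5 rose, 13 were lower and 14 did not pass, with a median of -0.20. After median centring 1 rose and 22 were lower, and centring on the bright probe sets gave 8 higher and 11 lower. None of the 13 that were lower under the authors' scaling met the rule for a fall. OsNAS3, a nicotianamine synthase, read 7331.8 and 7023.0 at 48 h and 4038.8 and 3941.9 at 72 h, a difference of -0.85 ± 0.05. OsNAS2, of the same family, gave -0.46 ± 0.05, and OsNAAT1, the next enzyme toward phytosiderophores, -0.54 ± 0.04. The vacuolar iron transporter OsVIT2 read 473.4 and 526.9 and then 123.7 and 77.2, after 14552.5 and 13647.8 at 6 h. OsNramp1, a metal transporter, gave -0.95 ± 0.08. The lower iron genes named here were chosen after their values were seen.

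Rises in the same list were in other transporters. OsZIP6, a zinc and iron transporter of the ZIP family, went from 5731.8 and 5671.8 to 9393.6 and 9595.5, a difference of 0.74 ± 0.05 that kept its call under every alternative. OsZIP1, of the same family, rose by 0.58 ± 0.07 and the metal transporter OsNramp2 by 0.48 ± 0.07, and after median centring these were 0.06 (adjusted p = 0.535) and -0.04.

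Nitrogen and potassium genes had more lower than higher calls under the authors' scaling. Of 16 genes of nitrogen uptake and assimilation 1 rose and 6 were lower, with a median of -0.23, and after median centring none rose and 11 were lower. OsAMT1;2, an ammonium transporter, read 1426.1 and 1402.9 at 48 h and 538.0 and 606.8 at 72 h on its only probe set. Of 20 potassium transport genes 4 rose and 7 were lower, with a median of -0.31, and OsHAK1 was the only one of them to meet the rule for a fall. Centring on the bright probe sets gave 5 higher and 4 lower potassium genes. OsHKT1;5, which removes sodium from the xylem, went from 806.3 and 794.5 to 1267.1 and 1374.8, a difference of 0.72 ± 0.10 (0.21 after median centring, adjusted p = 0.161). OsHAK14 rose by 1.36 ± 0.37 at low signal, and its call ended without 48 h replicate 1 (adjusted p = 0.123), without 72 h replicate 1 (0.0876) and after median centring (0.0894).

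Rises among water and silicon channels did not hold after median centring. Of 23 aquaporins 10 rose and 5 were lower, with a median of 0.26, and after median centring none rose and 12 were lower. That scaling left 392 of all 16112 genes higher and 9547 lower. OsPIP2;4 rose by 0.59 ± 0.05, OsPIP1;3 by 0.55 ± 0.04, OsTIP1;1 by 0.50 ± 0.04 and OsSIP1;1 by 0.69 ± 0.07. Their median-centred differences ran from -0.01 for OsTIP1;1 to 0.18 for OsSIP1;1. The silicon channel OsNIP2;1 rose by 0.33 ± 0.05 and the silicon exporter Lsi2 by 0.47 ± 0.05, which median centring turned to -0.19 and -0.05. The related channel OsNIP2;2 was lower on its only probe set, 247.0 and 206.8 at 48 h against 109.2 and 65.9 at 72 h, a difference of -1.41 ± 0.29 (adjusted p = 0.00338). OsTIP4;1 gave -0.95 ± 0.06 on its bright probe set and 0.84 ± 0.49 on a dim one, so its probe sets did not go the same way.

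Genes of light harvesting and of the clock changed in both directions, beside 19.5% of all genes that rose and 18.8% that were lower. Of 8 genes of light harvesting, photosystems and Rubisco 2 rose and 4 were lower, with a median of -0.24. CAB2R, which binds chlorophyll, fell on both probe sets, by 0.46 ± 0.06 and 1.04 ± 0.05 on the log2 scale, the first from 28185.6 and 25250.5 to 18764.0 and 19920.4. RCABP69, another light-harvesting gene, gave -0.84 ± 0.05 on its only probe set. OsrcaA1, Rubisco activase, had 4 probe sets with differences from -0.87 to 0.44, of which the highest was -0.07 after median centring. Of 7 clock genes 1 rose and 3 were lower, against 2 and 2 after centring on the bright probe sets. OsLHY, a morning factor, rose by 0.82 ± 0.06 from 2822.7 and 2906.9 to 4947.4 and 5143.1. OsPRR1, an evening factor, read 2273.8 and 2261.7 at 48 h and 509.1 and 475.9 at 72 h, and GI, another evening gene, 8006.0 and 7824.2 and then 5181.3 and 4912.6, each on its only probe set. At 24 h OsPRR1 had read 22.1 and 29.9 and OsLHY 12036.9 and 13106.8. The hour of harvest is unknown here, and its part in these values was not tested.

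Sugar transporters and sucrose enzymes had their calls on opposite sides under the authors' scaling. Of 13 sugar transporters 5 rose and none was lower, though their median was -0.06 and after median centring 1 rose and 6 were lower. OsSWEET4, a sugar exporter, went from 219.7 and 295.7 to 575.9 and 581.8, a difference of 1.18 ± 0.15. OsSWEET2b rose by 1.01 ± 0.18 on 1 probe set and gave 0.16 ± 0.24 on the other, and the call ended after median centring (adjusted p = 0.0523) and in a fit to all 10 arrays (0.0905). Of 22 genes of sucrose and starch metabolism 2 rose and 9 were lower, with a median of -0.21, and OsSUS1 was the only one of the 9 to meet the rule for a fall. None of 28 cellulose synthase family genes rose and 10 were lower, with a median of -0.20, and of these OsCesA3 alone met the rule. In that family 1 rose and 5 were lower after centring on the bright probe sets, 6 were lower after quantile normalization and 19 after median centring.

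Lignin and defence genes gave rises in single members. Of 19 phenylpropanoid and lignin genes 6 rose and 3 were lower, with a median of 0.21, and after median centring 3 rose and 10 were lower. OsCAD3, a cinnamyl alcohol dehydrogenase, went from 672.2 and 766.9 to 1579.8 and 1837.6, a difference of 1.25 ± 0.10. The laccases LAC7 and LAC24, which can polymerise lignin, rose by 0.88 ± 0.07 and 0.79 ± 0.08, and OsCAD2 by 0.64 ± 0.05 (0.13 after median centring, adjusted p = 0.154). The chitinase Cht6 went from 445.0 and 389.4 to 743.8 and 852.7, a difference of 0.94 ± 0.12, and Cht10 rose by 0.61 ± 0.07 (0.09 after median centring, adjusted p = 0.348). The chitinase OsChia1c gave -0.67 ± 0.07 on 1 probe set and -0.34 ± 0.12 (adjusted p = 0.0499) on the other, which did not pass without any 1 of the 4 arrays (0.125 to 0.211). OsOPR5, of the oxophytodienoate reductase family, gave -1.99 ± 0.11 on its bright probe set and 0.61 ± 0.88 on a dim one.

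All 6 WRKY factors tested, regulators of defence, passed the test, 4 higher and 2 lower, but none of the rises held after median centring. OsWRKY71 went from 720.5 and 749.6 to 1071.8 and 1029.2, a difference of 0.52 ± 0.07 (0.00 after median centring), and OsWRKY24 rose by 0.93 ± 0.20. OsWRKY76 rose by 1.12 ± 0.34, and its call ended without 48 h replicate 1 (adjusted p = 0.20) and without 72 h replicate 2 (0.147) or replicate 1 (0.0534). OsWRKY62 rose by 0.59 ± 0.18, and its call ended without 48 h replicate 1 (0.107), 48 h replicate 2 (0.136) or 72 h replicate 2 (0.173), all adjusted. Adh2, an alcohol dehydrogenase of fermentation, was the only 1 of 5 low-oxygen genes to rise, from 9082.8 and 8834.8 to 13952.9 and 13696.3, a difference of 0.63 ± 0.05 (0.11 after median centring, adjusted p = 0.209).

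Reference genes did not hold level as a group. Of 20 housekeeping references 5 rose, 8 were lower and 7 did not pass, with a median of 0.02 and a range from -1.27 to 1.69. After median centring none rose and 16 were lower, and after centring on the bright probe sets 8 rose and 5 were lower. Of 19 DNA replication genes 2 rose and none was lower, and after median centring none rose and 4 were lower. Among 38 cyclins and cyclin-dependent kinases 5 rose and 7 were lower, against 7 and 5 after centring on the bright probe sets and 0 and 25 after median centring. Over all genes 19.5% rose and 18.8% were lower under the authors' scaling.

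**Figure D5:**
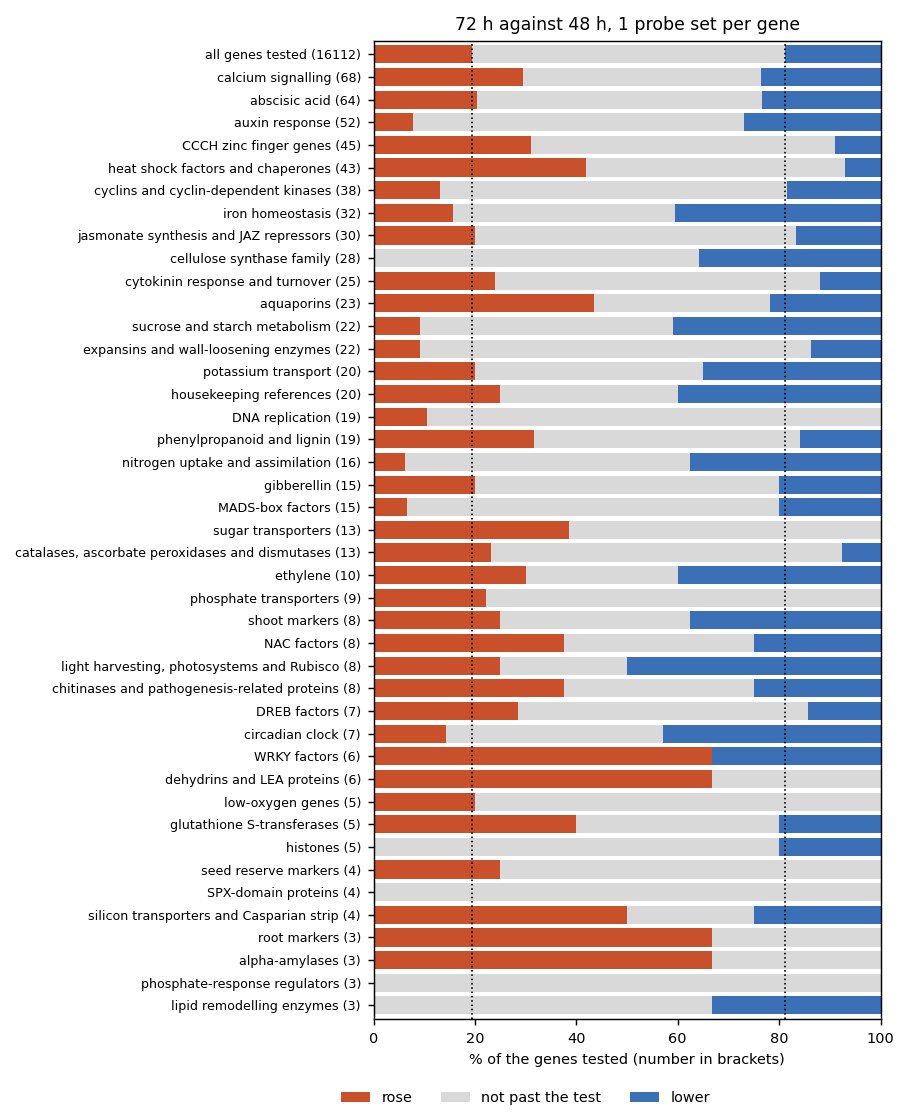
Share of the tested genes of each list (x axis, percent) that rose, did not pass the test or were lower at 72 h, for the lists with 3 or more genes tested, with the number tested in brackets. The dotted lines mark the shares over all 16112 genes, 19.5% that rose and 18.8% that were lower. Heat shock genes and aquaporins are among the lists past the first. Iron, cellulose synthase, sucrose and housekeeping genes are among those past the second.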

How the data were processed

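The authors deposited linear signal intensities per probe set, made with GCOS and MAS5 according to the submitters' processing notes, which name no version. All 8 low-phosphate arrays have the same mean, 500.1, once the top and bottom 2% are trimmed, so the arrays had been scaled to 1 target. The authors applied a 2-fold rule, per the series text.

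Genes were named from the platform annotation: of 57381 probe sets 22436 have 1 gene, 95 several and 34727 none, and 123 are controls. Of 17905 genes 2453 have a published symbol. The log2 of the deposited signals, without an offset, was fitted in limma 3.58.1 (R 4.3.3) with a mean for each of the 4 low-phosphate times over 8 arrays (eBayes with an intensity trend, two-sided tests). Tested probe sets had a mean log2 signal above the 40th percentile, 4.632. The fit was tested on simulated data.

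The arrays, gene lists and tests were chosen with earlier results of these data known. Named rises are the 14 largest with 1 named gene, no overlap, 72 h signals above 100 and no lower probe set. Named falls are the first 14 genes with 2 or more tested probe sets, all lower and not overlapping, ordered by the smallest fall. All measured phosphate genes and up to 4 members of each other list were added, and genes given as lower on 1 probe set were chosen after their values were seen. Lists were matched by symbol, and each gene was read on its brightest probe set. Genes in near-identical families can share probes. A planned search of promoters was not run, and no sequences were used here. The labels call the 2 arrays of a group biological replicates. Each standard error rests on a spread shared by the 8 low-phosphate arrays and moderated across probe sets. With 2 arrays a group the precision is limited. Same-group arrays correlated with r from 0.91 to 0.939, and 48 h with 72 h arrays from 0.901 to 0.903.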

Additional observations from a re-analysis of the deposited data

How the results depend on the processing

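Limma's counts of probe sets moved by over 1.5 times only with median centring, and the 2-fold counts also without a filter. Median centring gave 887 higher and 15334 lower probe sets by limma, and 1580 and 6562 by the 2-fold rule. With no filter on low values the 2-fold rule gave 14911 higher and 4766 lower. Other limma counts stayed within 1.5 times: 5282 and 5435 with quantile normalization, 3464 and 4261 with no intensity trend, and 4932 and 5774 with all 10 arrays. Leaving out 1 array at a time gave 3339 to 5566 higher and 3876 to 6115 lower.

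Of 109 named genes, 67 kept their direction and their side of the threshold under every alternative run. Median centring reversed 14 differences, to -0.43 for OsPht1;1, -0.44 for OsPht1;4, -0.11 for OsPHO1;2, -0.39 for OsSPX4, -0.37 for OsPHR1, -0.35 for OsPHR3, -0.44 for OsMGD3, -0.04 for OsNramp2, -0.18 for OsHAK7, -0.05 for Lsi2, -0.19 for OsNIP2;1, -0.01 for OsTIP1;1, -0.07 for OsrcaA1 and -0.14 for GLUA-2. It ended the call of 20 more, and brought OsPht1;8, OsSPX1, OsSPX2 and OsPHR2 past the threshold as lower, by its construction, since it takes 0.51 off each difference. With no intensity trend the calls of OsJAZ11, CYP76M6, OsMGD1, OsWRKY76 and OsWRKY62 ended, and with only the 48 h and 72 h arrays those of OsJAZ11 and DREB1G. Of 16 named falls, 8 kept every probe set lower under every alternative and 8 did not. Centring on bright probe sets was chosen after seeing the data.

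The replicate numbers did not pair the arrays, since deviations of same-numbered arrays correlated with r between -0.00805 and 0.0192. The fit with the replicate number as a block gave 4790 higher and 5642 lower and changed no call of the named genes on their main probe set; the second probe set of BGLU3 came to an adjusted p of 0.0502. The promoter search listed among the tests was not run. Dim probe sets limit what could be seen, as in OsPHO1;3 with a difference of 2.03 and a standard error of 0.81.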
